A study of Mus musculus with 4 samples.

Results

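The genes described here are those of the chromosome 8 segment around Mlycd, which encodes malonyl-CoA decarboxylase. Members were chosen by position and by summed count: named genes of mouse chromosome 8 whose lowest exon start lay within 5 Mb of Mlycd on either side (GRCm38), with at least 40 counts summed over the 4 libraries. Of 279 annotated rows in the window, 77 were members, against 50584 rows in all. Mlycd, Acsf3, Mvd, Rpl13 and Cox4i1 were left out by name (5 rows), as were 120 rows with clone or predicted symbols. A further 77 rows, 24 of them protein coding, had fewer than 40 counts. The rule itself did not use the strain difference of any member, but members and gene lists were chosen with earlier results of these data known. Just inside the minimum were Necab2 (44 counts) and Ccsap (46 counts), and just outside were Spata33 (32 counts) and Acta1 (30 counts).

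Liver RNA came from DBA/2J and C57BL/6J, inbred mouse strains, with 2 libraries each. All 4 animals were wild-type males of 14 weeks on a chow diet. Each library was read as 1 animal, since the study design counts 2 mice of either strain. Total counts ran from 48096706 to 52520737 per library. The 5 hepatocyte markers measured (Alb, Apoa1, Ttr, Cps1 and Fgb) summed to 80268 to 94716 CPM (the count scaled by the TMM-adjusted library size). Between strains, 0 of them had an edgeR adjusted p below 0.05. In Apoa1 and Ttr both DBA/2J libraries were below both C57BL/6J libraries, and in Alb, Cps1 and Fgb the strains overlapped. The replicates of C57BL/6J differed more than those of DBA/2J, the chi-square of their counts divided by its degrees of freedom being 76.9 against 18.7. C57BL/6J replicate 1 also had the highest summed levels of neutrophil, dendritic and T and NK cell markers, with values given beside the immune genes.

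An inbred strain is fixed for a single allele at nearly every locus, and neighbouring loci are inherited together as a haplotype. A strain difference in the mRNA of a gene can arise from sequence variants near that gene or from regulators elsewhere, and a comparison of 2 inbred strains cannot tell these apart. The segment holds genes of many kinds, among them steroid dehydrogenases and mitochondrial enzymes used by hepatocytes, lysosomal and secretory genes, and regulators of macrophages and endothelium. Reads of both strains were counted on a C57BL/6J-derived annotation, and the part that DBA/2J sequence variants played in the counts was not tested.

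Of the 77 members, 11 rose and 2 fell in DBA/2J relative to C57BL/6J at an adjusted p below 0.05 in edgeR's quasi-likelihood test, fitted and Benjamini-Hochberg adjusted over all 15647 tested genes. This was 16.9% of the members, beside 18.2% of all tested genes, so the share called was near the background. By direction, 14.3% of members were called higher beside 9.29% of all tested genes, and 2.60% lower beside 8.87%. The median log2 difference (DBA/2J over C57BL/6J) was 0.11 over the members and 0.01 over all tested genes. A positive sign was seen in 49 of 77 members, beside 50.7% of all tested genes. With scaling by library totals alone, 13 members were higher and 2 lower (all tested genes 12.3% and 6.54%), where the split over all tested genes was 1924 higher and 1024 lower, against 1454 and 1388 with TMM. At an unadjusted p below 0.05 there were 26 members, beside 35.4% of all tested genes. DESeq2 called 12 members higher and 2 lower (18.8% of all genes it tested), edgeR with DESeq2 size factors 9 and 2 (17.9%) and the legacy form of the edgeR test 10 and 2 (17.9%). Without a filter on low counts 7 were higher and 1 lower, beside 3.13% and 2.74% of all genes. The calls also depended on which libraries set the spread. Without 1 DBA/2J library, the spread within a strain came from the C57BL/6J pair alone, whose replicates differed more (chi-square per degree of freedom 76.9 against 18.7). Without 1 C57BL/6J library it came from the DBA/2J pair alone. The part of this in the calls was not tested. Libraries of the 13 called members did not overlap between strains, so leaving out 1 could hardly change their sign. Without DBA/2J replicate 1 edgeR called 0 members (10 at an unadjusted p below 0.05), and without DBA/2J replicate 2 it called 0 (13 at an unadjusted p below 0.05). In those fits 1.79% and 1.92% of all genes were called, 18.2% and 19.8% had an unadjusted p below 0.05, and the 13 members kept their sign. Without C57BL/6J replicate 1, 12 were higher and 4 lower, and without C57BL/6J replicate 2, 18 were higher and 10 lower, beside 11.7% and 12.5% of all genes in the first of these fits and 14.9% and 15% in the second.

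The differences were small. Among the 13 called members they ran from 1.23-fold for Zcchc14 to 2.14-fold for Galns, and Galns was the 1 called member with at least a 2-fold difference, beside 7.74% of all tested genes both called and at least 2-fold different. Of the 77 members, 32 had a log2 difference under 0.25 in size. All 77 passed the filter on low counts.

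**Figure D1:**
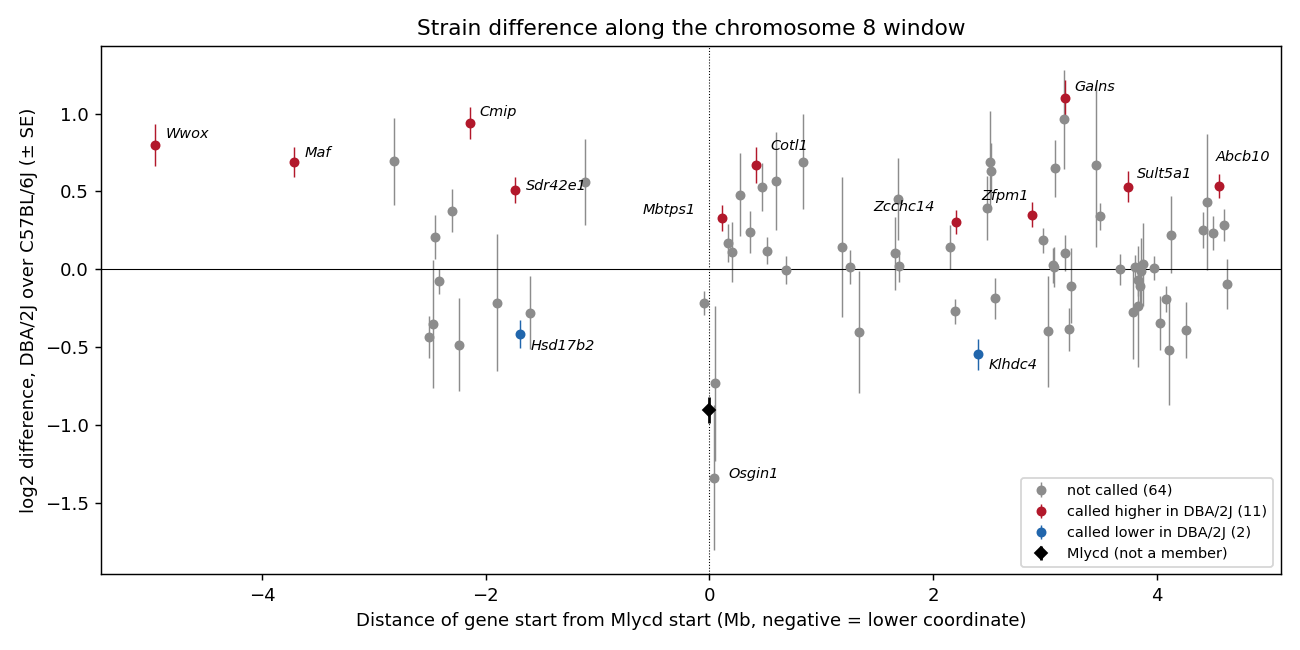
The x axis gives the distance of each member's start from the Mlycd start in Mb and the y axis its log2 difference between strains, DBA/2J over C57BL/6J, with bars of 1 SE from edgeR (2 libraries per strain). The 11 members called higher (red) lie on either side of Mlycd (black diamond, shown for reference), the 2 called lower (blue) are Hsd17b2 and Klhdc4, and the 64 others are grey.

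Within 1 Mb, 2 of 14 members were called (14.3%), both higher. At 1 to 2.5 Mb it was 5 of 22 (22.7%), 3 higher and 2 lower, and beyond 2.5 Mb it was 6 of 41 (14.6%), all higher. Of all tested genes 18.2% were called (9.29% higher and 8.87% lower), and of chromosome 8 genes outside the window 17.0%. The median absolute log2 difference was 0.40, 0.33 and 0.28 in these 3 distance classes, against 0.31 over all tested genes. Across the 77 members, Spearman's rho between absolute log2 difference and absolute distance was -0.12, a description over genes that share the same 4 libraries. The lower-coordinate side held 16 members, of which 4 were called higher and 1 lower (31.25%). The higher-coordinate side held 61, of which 7 were called higher and 1 lower (13.1%).

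In 50 of 77 members (64.9%) the libraries of DBA/2J were all above or all below those of C57BL/6J, beside 63.8% of all tested genes. DBA/2J was higher in 36 of them and lower in 14, where all tested genes had 32.5% and 31.2%. Within 500 kb of Mlycd this held for all 10 members, 7 of which were higher in DBA/2J and 3 lower. The 3 lower genes were those nearest to Mlycd: Osgin1, at 0.0392 Mb between starts, Hsbp1, at 0.0504 Mb on the other side, and Necab2, at 0.0518 Mb. These 3 were not called (edgeR adjusted p = 0.103, 0.113 and 0.346). For Necab2, the second library of either strain held 11 reads. Only scaling parted these libraries, to 0.199 CPM in DBA/2J and 0.220 CPM in C57BL/6J. The log2 difference of Osgin1 shrank from -1.34 to -0.43 without C57BL/6J replicate 1. From Mbtps1 to Crispld2, 9 members in a row had a positive log2 difference, the longest run of a single sign in the window. Over the whole window, 41 of 76 adjacent pairs of members had the same sign (53.9%), beside 52.9% of 13431 adjacent pairs of named genes across all chromosomes.

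**Figure D2:**
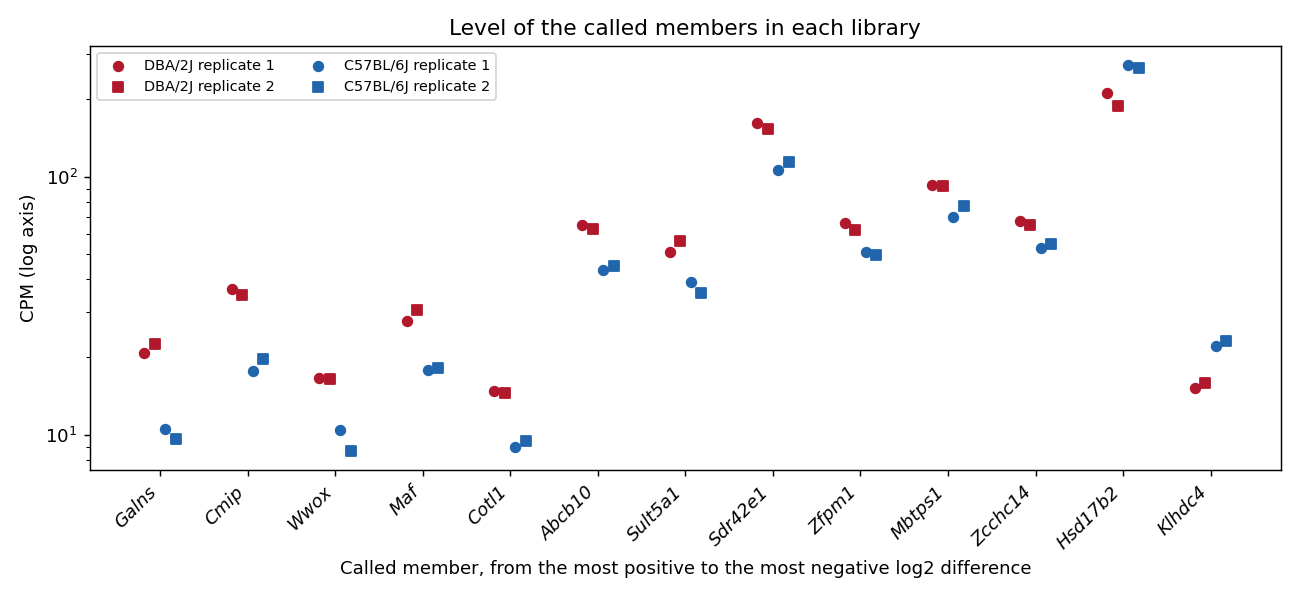
Each of the 13 called members is on the x axis, and the y axis gives its CPM in each library on a log scale, with red for DBA/2J, blue for C57BL/6J, circles for replicate 1 and squares for replicate 2. In all 13 the red and blue points do not overlap, and the gap is widest for Galns.

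Among the lysosomal, secretory and autophagy genes, 2 of 11 members were higher and 0 lower in DBA/2J (18.2%, beside 18.2% of all tested genes). Galns encodes the lysosomal sulfatase that removes sulfate from keratan sulfate and chondroitin sulfate. Its counts were 1004 and 1239 (DBA/2J replicates 1 and 2) and 515 and 479 (C57BL/6J replicates 1 and 2). Every DBA/2J value was above every C57BL/6J value. The means were 21.6 CPM ± 1.12 (SD, n = 2) and 10.1 CPM ± 0.686 (SD, n = 2), a log2 difference of 1.10 ± 0.11 (SE, edgeR adjusted p = 0.0039). This was the largest positive value among the members. Mbtps1, which encodes the site-1 protease of the Golgi, had counts of 4467 and 5104 (DBA/2J) and of 3412 and 3848 (C57BL/6J). Its difference of 0.33 ± 0.08 (edgeR adjusted p = 0.0482) lost its call in 4 of the 6 fits that kept all libraries (highest edgeR adjusted p = 0.115, without a filter on low counts) and without C57BL/6J replicate 1 (0.0666).

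The other genes of that list were not called. Chmp1a, a subunit of the membrane-cutting complex ESCRT-III, had 82.4 and 79.8 CPM in DBA/2J against 81.3 and 79.0 CPM in C57BL/6J, and its strains overlapped. Map1lc3b, which encodes the autophagosome protein LC3B, stood at -0.27 ± 0.08 (edgeR adjusted p = 0.0721), and Rab4a, a GTPase of recycling endosomes, at 0.25 ± 0.11 (edgeR adjusted p = 0.175). Emc8 and Zdhhc7 had log2 values of 0.02 and -0.0045.

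Among the liver metabolic and mitochondrial genes, 4 of 14 members were higher and 1 lower (35.7%, beside 18.2% of all tested genes). Sdr42e1, of the short-chain dehydrogenase family, had counts of 7800 and 8438 (DBA/2J) and of 5180 and 5718 (C57BL/6J). Its log2 difference was 0.51 ± 0.08 (edgeR adjusted p = 0.0148). Its neighbour Hsd17b2, whose enzyme oxidises oestradiol and testosterone to less active steroids, went the other way. It had counts of 10206 and 10430 (DBA/2J) and of 13188 and 13125 (C57BL/6J), a log2 difference of -0.42 ± 0.09 (edgeR adjusted p = 0.0334). The starts of these 2 dehydrogenase genes lie 1.73 and 1.69 Mb from that of Mlycd, on the lower-coordinate side. Per kilobase of annotated exon, Hsd17b2 had the higher level of the 2 in both strains, at 104 CPM per kb in DBA/2J and 139 in C57BL/6J, against 53.1 and 37.3 for Sdr42e1.

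Sult5a1, a member of the sulfotransferase family, had counts of 2474 and 3121 (DBA/2J) and of 1912 and 1764 (C57BL/6J) (0.53 ± 0.10, edgeR adjusted p = 0.0202). Abcb10, a transporter of the inner mitochondrial membrane needed for haem synthesis in red cell precursors, had 3143 and 3485 counts against 2123 and 2246 (0.53 ± 0.08, edgeR adjusted p = 0.0110). The 5 erythroid markers summed to 343 and 294 CPM in DBA/2J and 184 and 221 CPM in C57BL/6J. Most of this was Alas2, at 259 and 221 CPM in DBA/2J and 109 and 143 CPM in C57BL/6J. Hba-a1 and Alas2 were called higher and Hba-a2 lower. Hbb-bs stood at 46.7 and 43.9 CPM in DBA/2J and 38.3 and 41.7 CPM in C57BL/6J. Hbb-bt was lower in DBA/2J, at 7.84 and 6.71 CPM against 8.23 and 9.74 CPM. The part of these markers in the Abcb10 difference was not tested. Wwox, which encodes a WW-domain oxidoreductase at a chromosomal fragile site and lies farthest from Mlycd, had 802 and 910 counts against 507 and 431 (0.80 ± 0.13, edgeR adjusted p = 0.0155). In Sult5a1, Abcb10 and Wwox the DBA/2J libraries were above both C57BL/6J libraries. Without a filter on low counts Hsd17b2 and Sult5a1 were not called (edgeR adjusted p = 0.0681 and 0.0573).

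The other metabolic members were not called by edgeR, and DESeq2 called Car5a. Car5a, the mitochondrial carbonic anhydrase that supplies bicarbonate to the urea cycle and gluconeogenesis, had counts of 3687 and 3893 (DBA/2J) and of 1882 and 2800 (C57BL/6J). Its difference was 0.63 ± 0.18 (edgeR adjusted p = 0.0635), and edgeR called it with scaling by library totals and without either C57BL/6J library (adjusted p = 0.0229 without replicate 1 and 0.000374 without replicate 2). Gcsh, the carrier protein of glycine cleavage, had 99.5 and 93.0 CPM in DBA/2J and 101 and 102 CPM in C57BL/6J. Cmc2, a complex IV assembly factor, stood at -0.44 ± 0.14 (edgeR adjusted p = 0.0804), Bco1, which cleaves beta-carotene, at 0.38 ± 0.14 (0.116), and Aprt, which salvages adenine, at 0.11 ± 0.11 (0.554). Spg7 and Afg3l1, which encode subunits of the mitochondrial m-AAA protease, stood at 0.00 ± 0.10 and -0.19 ± 0.08 (edgeR adjusted p = 0.998 and 0.172).

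Of 14 transcription and chromatin genes, 2 were higher and 0 lower (14.3%, beside 18.2% of all tested genes). Maf, a basic leucine zipper transcription factor of macrophages and sinusoidal endothelium, had counts of 1330 and 1682 (DBA/2J) and of 867 and 908 (C57BL/6J). Its log2 difference was 0.69 ± 0.10 (edgeR adjusted p = 0.0104). Zfpm1, which encodes the GATA cofactor FOG1, had 3199 and 3453 counts against 2495 and 2480 (0.35 ± 0.08, edgeR adjusted p = 0.0363). The Zfpm1 call was lost without a filter on low counts (edgeR adjusted p = 0.0855) and with a replicate block in the fit (0.0584). For Maf, 9 macrophage markers, of which Marco was called lower, summed to 213 and 215 CPM in DBA/2J and 183 and 249 CPM in C57BL/6J, and 7 sinusoidal endothelial markers to 139 and 168 CPM in DBA/2J and 120 and 148 CPM in C57BL/6J, with Stab2 called higher and Lyve1 lower, and their part in the result was not tested. In bulk tissue, more RNA per cell and more cells of a type cannot be told apart.

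Tcf25 was nearly level between the strains, with 233 and 234 CPM in DBA/2J and 231 and 233 CPM in C57BL/6J and a log2 difference of 0.01 ± 0.08 (edgeR adjusted p = 0.943). Ankrd11, a chromatin regulator, stood just outside the threshold at 0.34 ± 0.09 (edgeR adjusted p = 0.0505). Gse1 had counts of 1238 and 1978 (DBA/2J) and of 656 and 1226 (C57BL/6J), with replicate 2 the higher library in each strain. Foxf1, a mesenchymal transcription factor of stellate cells, stood at 0.45 ± 0.27 (edgeR adjusted p = 0.282) and its neighbour Fendrr, a long noncoding RNA, at 0.10 ± 0.23 (0.793). The 7 stellate cell markers summed to 220 and 262 CPM in DBA/2J against 126 and 179 CPM in C57BL/6J. Reln was called higher, and the other 6 summed to 153 and 188 CPM in DBA/2J and 101 and 147 CPM in C57BL/6J. Most of this was Dcn, at 91.4 and 120 CPM in DBA/2J and 56.0 and 81.7 CPM in C57BL/6J. In Lrat, Col1a1, Col3a1, Des and Hand2 the strains overlapped. The part of stellate cells in these values was not tested.

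Of 9 ubiquitin ligase and signalling genes, 2 were higher and 1 lower (33.3%, beside 18.2% of all tested genes). Cmip, a signalling adaptor named for its induction of c-Maf, had counts of 1769 and 1928 (DBA/2J) and of 858 and 982 (C57BL/6J). The means were 35.8 CPM ± 1.28 (SD, n = 2) and 18.6 CPM ± 1.46 (SD, n = 2), a log2 difference of 0.94 ± 0.10 (edgeR adjusted p = 0.0042). Cmip was the only called member other than Galns with a difference of more than 1.9-fold (1.92-fold). Klhdc4, a kelch-domain gene, had counts of 729 and 874 (DBA/2J) and of 1076 and 1151 (C57BL/6J) (-0.55 ± 0.10, edgeR adjusted p = 0.0188). The DBA/2J libraries were both below those of C57BL/6J. Zcchc14, a zinc finger gene, had 3257 and 3611 counts against 2570 and 2742 (0.30 ± 0.08, edgeR adjusted p = 0.0498), and its exons overlap those of Map1lc3b on the other strand. That call was lost in 5 of the 6 fits that kept all libraries (highest edgeR adjusted p = 0.114) and without C57BL/6J replicate 1 (0.0622).

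Immune signalling genes had 1 of 4 members called (25%, beside 18.2% of all tested genes). Cotl1, which encodes an actin-binding protein abundant in leukocytes, had counts of 715 and 803 (DBA/2J) and of 438 and 471 (C57BL/6J) (0.67 ± 0.11, edgeR adjusted p = 0.0160). Irf8, a transcription factor of myeloid and B cells, had 242 and 284 counts in DBA/2J, 460 in C57BL/6J replicate 1 and 199 in C57BL/6J replicate 2. Cyba, a subunit of the phagocyte NADPH oxidase, had 169 and 230 counts, then 332 and 165, and Plcg2, a phospholipase of B-cell and myeloid signalling, had 63 and 74, then 106 and 45. In these last 3 genes C57BL/6J replicate 1 was the highest and replicate 2 the lowest of the 4 libraries. Their log2 differences of -0.40, -0.40 and -0.22 were not called (edgeR adjusted p = 0.513, 0.473 and 0.766).

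Summed markers of several leukocyte types were also highest in C57BL/6J replicate 1. The 6 B-cell markers summed to 74.3 CPM in C57BL/6J replicate 1 and 34.4 CPM in replicate 2, against 43.2 and 44.0 CPM in DBA/2J, and 0 of the 6 were called. Most of this was Cd74, and the other 5 summed to 7.11 and 8.64 CPM in DBA/2J and 8.21 and 4.85 CPM in C57BL/6J replicates 1 and 2, with DBA/2J replicate 2 the highest. The 6 neutrophil markers summed to 5.97 CPM in C57BL/6J replicate 1 and 0.253 to 0.643 CPM in the others, with 2 of them tested and 0 called. Most of that sum was S100a8, S100a9 and Retnlg, at 112, 133 and 38 counts in C57BL/6J replicate 1. The other neutrophil markers were at few counts. Ly6g had 4 counts in C57BL/6J replicate 1 and 1 or 0 elsewhere. Ngp had 3 counts in replicate 1 of either strain and 0 elsewhere. Camp did not follow, with 4 and 0 counts in DBA/2J and 1 and 4 in C57BL/6J replicates 1 and 2. The 5 dendritic cell markers summed to 6.26 CPM in that library and 3.47 to 3.71 CPM in the others. Of them Flt3 and Xcr1 were called lower in DBA/2J, and the part of these cells in the immune genes was not tested. For T and NK cells the 6 markers summed to 1.89 CPM in that library and 0.560 to 0.842 CPM in the others. Without C57BL/6J replicate 1, Irf8 stood at 0.34 and Cyba at 0.21, and neither was called (edgeR adjusted p = 0.225 and 0.532). Without replicate 2, Irf8 was called lower (-0.90, edgeR adjusted p = 0.00394), as was Cyba (-0.83, 0.0138).

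No member was called among cell cycle, DNA replication and repair genes (0 of 8, with 2 at an unadjusted p below 0.05), among RNA processing and nuclear pore genes (0 of 4, with 0) or among membrane, adhesion and cytoskeletal genes (0 of 9, with 1). Over all tested genes 18.2% were called and 35.4% had an unadjusted p below 0.05. DESeq2 called 1 gene of the first list, Cdt1, and 1 of the last, Piezo1, both higher in DBA/2J. Cdt1, which licenses replication origins, had counts of 265 and 229 (DBA/2J) and of 87 and 157 (C57BL/6J), a log2 difference of 0.96 ± 0.32 (edgeR adjusted p = 0.0916). Piezo1, a mechanically gated channel, had 370 and 469 counts against 285 and 223 (0.65 ± 0.19, edgeR adjusted p = 0.0655). In either gene the strains did not overlap. In the membrane list 8 of 9 members had a positive log2 value, with a median of 0.48. Necab2, at 6 and 11 counts in DBA/2J and 16 and 11 in C57BL/6J, was the exception.

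Osgin1, an oxidative stress-induced growth inhibitor gene held in the cell cycle list, had the largest fitted difference in size among the members and was not called. It had 12006 and 9654 counts in DBA/2J, 38284 in C57BL/6J replicate 1 and 14214 in C57BL/6J replicate 2. The C57BL/6J replicates differed by 1.46 on the log2 scale, more than the strains did (-1.34 ± 0.47, edgeR adjusted p = 0.103). Without C57BL/6J replicate 1 the difference was -0.43 (edgeR adjusted p = 0.115), and without C57BL/6J replicate 2 it was -1.89 and called (edgeR adjusted p = 0.000209). Of the 4 members in none of the 8 lists (Fendrr, BC048644, Afg3l1 and Dbndd1), 0 were called by edgeR or DESeq2 and 0 had an unadjusted p below 0.05 in edgeR.

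**Figure D3:**
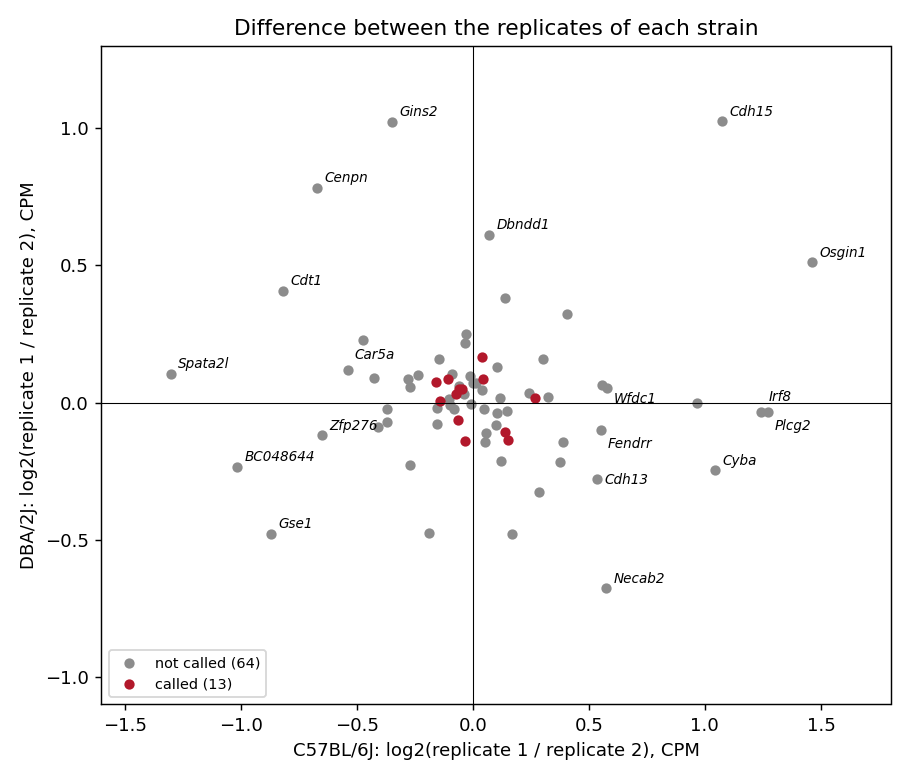
The x axis gives the log2 ratio of CPM in replicate 1 over replicate 2 of C57BL/6J and the y axis the same ratio for DBA/2J, with a point for each of the 77 members and names for most of those at least 0.5 from 0 on either axis. The 13 called members (red) sit near the centre, and Osgin1, Plcg2, Irf8 and Cyba stand to the right, Spata2l and BC048644 to the left.

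The replicates differed more in C57BL/6J than in DBA/2J among the members too. The median absolute log2 gap between replicates was 0.16 in C57BL/6J and 0.098 in DBA/2J. In C57BL/6J 18 members had a gap of at least 0.5, with 11 higher in replicate 1 and 7 higher in replicate 2, and in DBA/2J 6 members did.

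Some neighbouring genes were higher in the second C57BL/6J library. Spata2l had counts of 1051 (C57BL/6J replicate 1) and 2649 (replicate 2), with 1583 and 1687 in DBA/2J, so that the DBA/2J libraries lay between those of C57BL/6J. Without C57BL/6J replicate 1 Spata2l was called lower in DBA/2J (-0.75, edgeR adjusted p = 0.00101), and without replicate 2 it was called higher (0.55, edgeR adjusted p = 0.00582). Its neighbours Vps9d1 and Zfp276 also had their highest CPM in C57BL/6J replicate 2, as did Def8. Zfp276 had 24.9 and 39.1 CPM in C57BL/6J replicates 1 and 2, Vps9d1 27.2 and 35.2 CPM, and Def8 39.9 and 55.5 CPM. In DBA/2J these 3 genes had 30.4 and 33.0, 28.7 and 29.2, and 40.5 and 34.6 CPM. Exons of Spata2l overlap those of Cdk10, and exons of Vps9d1 overlap those of Zfp276. Cdk10, in the same stretch, did not follow, at 19.4 and 18.7 CPM in C57BL/6J and 17.3 and 19.1 CPM in DBA/2J.

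Genes that start close together on opposite strands share a promoter region, and 6 such head-to-head pairs of members had starts within 1 kb of each other. Both genes of a pair had the same sign in 4 pairs and opposite signs in 2. The promoter windows of 3 of these pairs are printed, each holding the starts of both genes. They were picked with the values known, as 1 pair that parted between the strains and 2 that did not part by as much. The window of BC048644 also holds the start of Slc7a5 and is not printed. Sequences are from RefSeq (GRCm38.p6, the C57BL/6J reference), run from 250 bases before the start of the gene named first to 50 after, and are given 5′ to 3′ on its strand. Capitals mark GGGCGG (GC box), CCAAT and TATAAA on either strand.
Trappc2l with Galns, chr8:122611376-122611675, forward strand: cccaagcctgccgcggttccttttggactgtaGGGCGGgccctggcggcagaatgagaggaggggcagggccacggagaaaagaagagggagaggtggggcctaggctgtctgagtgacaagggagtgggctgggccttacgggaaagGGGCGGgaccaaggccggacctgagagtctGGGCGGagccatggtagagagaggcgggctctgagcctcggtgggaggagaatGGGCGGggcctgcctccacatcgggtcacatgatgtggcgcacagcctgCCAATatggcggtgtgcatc
Ctu2 with Rnf166, chr8:122475893-122476192, forward strand: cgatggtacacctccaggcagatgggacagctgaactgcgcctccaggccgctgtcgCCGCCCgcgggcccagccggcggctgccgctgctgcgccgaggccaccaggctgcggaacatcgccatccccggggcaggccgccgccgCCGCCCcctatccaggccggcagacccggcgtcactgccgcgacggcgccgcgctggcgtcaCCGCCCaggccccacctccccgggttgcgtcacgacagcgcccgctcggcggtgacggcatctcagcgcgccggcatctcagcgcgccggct
Urb2 with Taf5l, chr8:124021247-124021546, forward strand: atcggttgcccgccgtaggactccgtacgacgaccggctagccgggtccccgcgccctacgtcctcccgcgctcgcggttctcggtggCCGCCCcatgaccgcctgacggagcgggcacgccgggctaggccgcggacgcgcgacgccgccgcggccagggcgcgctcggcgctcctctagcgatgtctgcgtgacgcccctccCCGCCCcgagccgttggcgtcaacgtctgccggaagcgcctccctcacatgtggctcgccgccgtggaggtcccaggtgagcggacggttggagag
In the files' annotation Galns begins at base 88 of the first window and runs to the left, Rnf166 at base 172 of the second and Taf5l at base 151 of the third. The first window holds 4 GC boxes and 1 CCAAT, the second 3 GC boxes and the third 2. Of the 77 members, 56 had a RefSeq promoter entry, of which 44 held a GC box (78.6%), 14 a CCAAT (25%) and 4 a TATAAA (7.14%). Over 32851 mouse promoters of 300 bases these shares were 35.7%, 37.4% and 13.6%. Members had to be detected in liver, which was not required of the promoters as a whole.

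Galns and Trappc2l, a gene for a subunit of the TRAPP vesicle tethering complexes, start 177 bases apart. Trappc2l had counts of 394 and 524 (DBA/2J) and of 585 and 551 (C57BL/6J), all DBA/2J values being lower, with a log2 difference of -0.38 ± 0.14 that was not called (edgeR adjusted p = 0.111). Within a library, the count of Galns over that of Trappc2l was 2.55 and 2.36 in DBA/2J replicates 1 and 2, and 0.880 and 0.869 in C57BL/6J replicates 1 and 2. The ratio was thus above 1 in both DBA/2J libraries and below 1 in both C57BL/6J libraries. It takes in the called Galns difference and is a description.

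Rnf166, a ubiquitin ligase gene, and Ctu2, which modifies the wobble base of transfer RNAs, start 79 bases apart and had log2 values of 0.03 ± 0.11 and 0.01 ± 0.13. Their count ratio was 0.934 and 1.03 in DBA/2J and 0.918 and 1.04 in C57BL/6J. Taf5l, a histone acetyltransferase complex subunit, and Urb2, a ribosome biogenesis factor, start 111 bases apart and stood at 0.28 ± 0.10 and -0.10 ± 0.16 (edgeR adjusted p = 0.117 and 0.715). The count ratio of Taf5l to Urb2 was 1.72 and 1.56 in DBA/2J and 1.45 and 1.11 in C57BL/6J, so it too was higher in both DBA/2J libraries, by less than that of Galns to Trappc2l. Cmc2 and Cenpn stood at -0.44 and -0.35, and Vps9d1 and Zfp276 at -0.11 and -0.01. Slc7a5, the large neutral amino acid transporter gene, and the bidirectional noncoding RNA BC048644 stood at 0.40 ± 0.21 and 0.69 ± 0.32 (edgeR adjusted p = 0.235 and 0.193). Exons of BC048644 overlap those of Car5a, and it had counts of 519 and 700 (DBA/2J) and of 234 and 484 (C57BL/6J), with C57BL/6J replicate 1 the lowest library, as for Car5a.

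**Figure D4:**
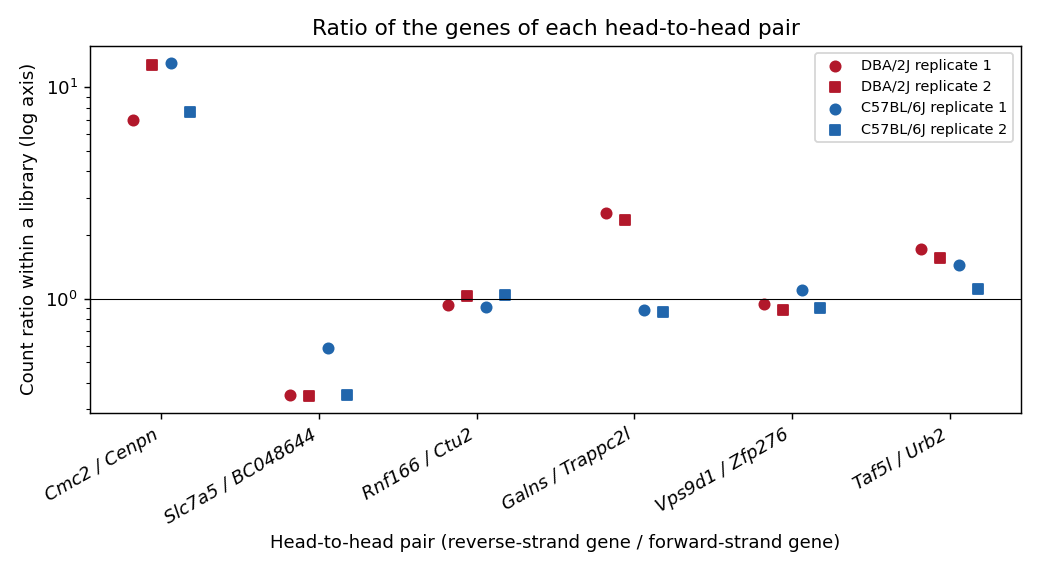
For the 6 head-to-head pairs on the x axis, the y axis gives the count of the reverse-strand gene over that of the forward-strand gene in each library on a log scale, with red for DBA/2J and blue for C57BL/6J. The Galns to Trappc2l ratio is 2.36 to 2.55 in DBA/2J and 0.869 to 0.880 in C57BL/6J, while in the Rnf166 and Ctu2 pair the strains overlap.

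Shared exons touched 25 of the 77 members, of which 3 were called higher and 1 lower. Among the 52 members whose exons overlap no other symbol, 8 were called higher and 1 lower, 17.3% in all, beside 18.2% of all tested genes. The called members among the 25 were Maf, Zcchc14, Klhdc4 and Abcb10. The median annotated exon length was 4012 bases over the members, 4419 over the 11 called higher and 3715 over all tested genes. Spearman's rho between log2 difference and exon length was 0.12 over the 77 members, given as a description.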

How the data were processed

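Poly(A)-selected liver RNA of 4 mice was sequenced as single-end reads of 100 bases, per the labels' protocols. The authors deposited raw counts of reads per gene symbol, made with featureCounts 2.0.1 on exons of Ensembl release 88 (GRCm38), per the file headers. The submitters' processing notes name STAR 2.4.0g1 and featureCounts 1.5.2. The header sets no strand or multi-mapping option and does set featureCounts' paired-end option, which differs from the single-end label; its effect on the counts was not tested. The test was that of edgeR 4.0.16 in R 4.3.3 (glmQLFit with legacy=FALSE, glmQLFTest, TMM scaling, filterByExpr with a minimum count of 10). Strain was the only term. P-values were Benjamini-Hochberg adjusted over all 15647 tested genes, and the SE is the log2 difference over the root of F. The fit was tested on simulated data. With all libraries kept, p-values set the strain difference against a spread estimated from 2 animals per strain, which edgeR draws toward a trend over all tested genes. With a library left out, that spread came from the pair of the other strain. An exact permutation test of 2 against 2 cannot go below 0.333. Alternatives were DESeq2 1.42.0, its size factors, library totals, the legacy fit, no low-count filter, a replicate block and leaving out each library. The members and gene lists were chosen with earlier results of these data known. Named members were those called, within 500 kb of Mlycd, at an absolute log2 of at least 1, highest in their list or in head-to-head pairs. Others, such as Car5a, Cdt1, Cyba, Plcg2 and Def8, were chosen after their values were seen. Gene types are from GENCODE mouse release 21 (GRCm38), which held all 77 members. The values of some members are not reported here by name.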

Additional observations from a re-analysis of the deposited data

How the results depend on the processing

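The counts of called members depended on the libraries. With each library left out in turn, members called higher ran from 0 to 18, members called lower from 0 to 10, calls within 1 Mb from 0 to 4, at 1 to 2.5 Mb from 0 to 8 and beyond 2.5 Mb from 0 to 16. The median log2 difference of the members ran from 0.065 to 0.20. Without a filter on low counts 7 members were higher and 1 lower, with 1 call within 1 Mb and 3 at 1 to 2.5 Mb. DESeq2 size factors left 1 call within 1 Mb, as did DESeq2's own test. Leaving out members that share exons left 1 lower, with a median of 0.12. The median was 0.19 with library totals, where that of all tested genes moved from 0.01 to 0.09. The replicate block, with numbers that do not pair animals (correlation of deviations -0.06), gave a median of 0.12, 9 higher and 3 lower (all genes 7.8% and 7.52%). It gained Osgin1 and Gse1 and lost Mbtps1, Zcchc14 and Zfpm1 (edgeR adjusted p = 0.0229 for Osgin1 and 0.0584 for Zfpm1). The 13 called members kept their sign in all 10 alternative fits. Their libraries did not overlap between strains, so leaving out a library could hardly change the sign, and this adds no support. Signs changed for 23 of the 77 members when a library was left out, with 0 of the 13 called members among them. Of the members named by rule, 9 changed sign in some fit. With each library left out in turn, Cenpn ran from -0.79 to 0.016, Irf8 from -0.90 to 0.34, Rnf166 from -0.036 to 0.065, Ctu2 from -0.10 to 0.13, Spata2l from -0.75 to 0.55, Vps9d1 from -0.29 to 0.087, Zfp276 from -0.31 to 0.35, Tcf25 from -0.0030 to 0.012 and Urb2 from -0.27 to 0.10. Zfp276 stood at 0.069 with library totals and 0.021 with the replicate block. The cause was not tested. Necab2 and Ccsap had 44 and 46 counts in all, which limits what their values can show.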

Other observations

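The window also held 120 rows with clone or predicted symbols, of which 22 were tested. With edgeR 3 of them rose and 1 fell, 18.2% in all, beside 18.2% of all tested genes. They were looked at after the members' values had been seen. Gm4316, an intergenic noncoding RNA, was counted 114 and 588 times (DBA/2J) and 7 and 4 times (C57BL/6J), a log2 difference of 5.84 ± 1.03 (edgeR adjusted p = 0.0178). The DBA/2J animals had 2.36 and 10.6 CPM of it. Gm45776 had 25 and 23 counts against 6 and 4 (2.17 ± 0.48, edgeR adjusted p = 0.0327). Gm16116, annotated as antisense, had 87 and 103 counts against 41 and 40 (1.16 ± 0.26, edgeR adjusted p = 0.0331). The RNA 4732419C18Rik was lower, with 182 and 229 counts against 368 and 308 (-0.79 ± 0.18, edgeR adjusted p = 0.0364).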
